A study of Mus musculus with 12 samples.

Results

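The 10 genes described here are *Stat3*, *Stat5a*, *Stat5b*, *Jak2*, *Socs1*, *Socs2*, *Socs3*, *Cish*, *Pim1* and *Pim2*, which were listed by name for their place in JAK–STAT5 signalling. No measured value enters the rule, although the list was drawn up with earlier results of these data known. All 10 were found among the 41444 genes of the expression table. Polyadenylated RNA was measured in *BCR-ABL1* transformed *Ctnnb1* fl/fl mouse pre-B cells, a model of acute lymphoblastic leukaemia (B-ALL), with 12 samples in 4 groups. Both groups compared here carried the ERT2 vector, which has no Cre and so does not excise the floxed *Ctnnb1* (β-catenin) alleles. Both received 1 μM 4-OHT, the active tamoxifen metabolite, for 2 days, and 1 of them also received 40 nM LY2090314, a small-molecule inhibitor of GSK3β, for 1 day. The control group and the LY2090314 group held 3 samples each. The pre-B cells came from bone marrow, were expanded in IL-7 and were weaned from it after retroviral transduction with *BCR-ABL1*. The groups with Cre-ERT2, in which 4-OHT excises β-catenin, are not analysed here.

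The kinase JAK2 and its relatives sit on cytokine receptors and phosphorylate STAT proteins, which then enter the nucleus as dimers and switch on target genes. In pre-B cells the main input is the IL-7 receptor. The BCR-ABL1 fusion kinase replaces that input and keeps STAT5 phosphorylated without cytokine. Among the best-known STAT5 targets are the feedback inhibitors *Cish* and *Socs1* to *Socs3* and the survival kinases *Pim1* and *Pim2*, so transcript levels of these genes are often read as a sign of STAT activity, although each also has other regulators.

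The values are regularized log2 (rlog) values, in which the authors scaled read counts for library size and drew genes with few reads towards their mean, so differences of low-expressed genes are understated. The depth of each library is unknown, and no interval from read counts can be given. A pair of the treated samples, numbered 1 and 2 here, shares a library number in the table, and their values differed across genes with an SD of 0.186. That SD was 0.253 for either of them with treated sample 3, and 0.185 to 0.239 between control samples. Of 8 pre-B markers, all were expressed, and 7 were lower with LY2090314, among them *Rag1* (difference −1.93). *Cd79a* was the exception (0.23, adjusted p = 0.053, limma). None of 5 T cell, 4 erythroid and 4 stromal markers, and 1 of 6 myeloid markers, *Lyz2*, passed the limit on mean level used for testing. *Lyz2* rose from 5.80 to 6.34 (adjusted p = 0.0023, limma). In bulk RNA, fewer cells of a type and less RNA per cell cannot be told apart. What part the shift of these markers has in the results below was not tested.

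Related members moved in opposite directions with LY2090314, and their promoters are shown here to place them. The sequences are the 250 bases before the RefSeq start (GRCm38.p6), 5′ to 3′ on the strand of the gene. *Socs3* lies at chr11:117969367-117969616 on the minus strand, *Socs1* at chr16:10785537-10785786 on the minus strand, *Pim1* (the upstream of 2 listed starts) at chr17:29490535-29490784 on the plus strand, and *Pim2* at chrX:7878056-7878305 on the plus strand. These starts are not always those of the gene positions given below, which come from GENCODE vM21. By those positions the *Socs3* window, with its STAT letters, lies inside the gene, and the *Pim1* and *Pim2* windows run into theirs. Capitals mark the STAT letters TTCNNNGAA in *Socs3* and the TCF/LEF letters CTTTGA, read on the other strand, in *Pim2*.
Socs3: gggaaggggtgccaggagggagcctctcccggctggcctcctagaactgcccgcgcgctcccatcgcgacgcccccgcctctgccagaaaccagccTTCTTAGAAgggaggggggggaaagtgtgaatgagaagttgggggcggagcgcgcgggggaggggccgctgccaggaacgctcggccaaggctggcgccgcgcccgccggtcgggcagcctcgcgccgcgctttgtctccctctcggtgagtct
Socs1: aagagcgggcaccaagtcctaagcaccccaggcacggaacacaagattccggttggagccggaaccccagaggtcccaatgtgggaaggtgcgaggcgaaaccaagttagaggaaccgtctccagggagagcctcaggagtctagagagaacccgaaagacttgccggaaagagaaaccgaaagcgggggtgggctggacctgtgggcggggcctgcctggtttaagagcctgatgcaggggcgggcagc
Pim1: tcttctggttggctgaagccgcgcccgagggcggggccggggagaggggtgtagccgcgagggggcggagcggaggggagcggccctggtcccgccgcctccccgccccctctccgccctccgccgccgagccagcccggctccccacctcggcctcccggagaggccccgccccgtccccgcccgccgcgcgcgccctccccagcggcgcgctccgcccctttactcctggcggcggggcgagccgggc
Pim2: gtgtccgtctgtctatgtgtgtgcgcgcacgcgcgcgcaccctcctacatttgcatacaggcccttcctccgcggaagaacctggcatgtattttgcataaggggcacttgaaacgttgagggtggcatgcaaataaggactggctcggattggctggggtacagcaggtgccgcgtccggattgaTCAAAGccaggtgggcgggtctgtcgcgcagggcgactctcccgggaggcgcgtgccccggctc

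Of the 10 members, 9 had promoter entries, with 12 windows in all. *Socs2* had no entry. The STAT letters, which read the same on both strands, were found in 1 of these windows, that of *Socs3*. They occur in 7.02% of all 32851 windows. The TCF/LEF letters, searched on both strands, were found in 2 of the windows, at *Pim2* and at the downstream of 2 starts of *Stat5a*, against 13.8% of all windows. The Ikaros core letters GGGAA, also searched on both strands, were found in 7 of the 12 windows, against 56.2% of all windows. A match of letters is not a binding site, and letters missing from these windows say nothing of sites elsewhere.

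Whether inhibition of GSK3β altered transcripts of this pathway was asked by comparing both groups across all 11536 genes with a mean rlog value of at least 3. All 10 members passed this limit, which does not depend on group. With LY2090314, 4 members were higher (*Pim2*, *Socs1*, *Socs2* and *Stat3*), 4 were lower (*Pim1*, *Socs3*, *Cish* and *Stat5b*) and 2 did not pass the test (*Jak2* and *Stat5a*), with limma and a Benjamini-Hochberg adjusted p under 0.05. Across all genes tested 50.1% passed, 24.8% higher and 25.3% lower, which is the background for every count given here. At an adjusted p under 0.01, 7 members passed, against 34.9% of genes. With a log2 difference of at least 1 also required, 2 members were left, *Pim2* and *Socs1*, against 6.01% of genes. The groups did not overlap in 8 of the members, against 58.6% of genes. The median difference of the members was −0.01, and that of all genes 0.01. The median size of the difference, whatever its direction, was 0.47 for the members and 0.24 for all genes. An exact two-sided permutation test of a single member cannot fall below p = 0.10 with 3 samples against 3, and the 8 members whose groups did not overlap were at that value.

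**Figure D1:**
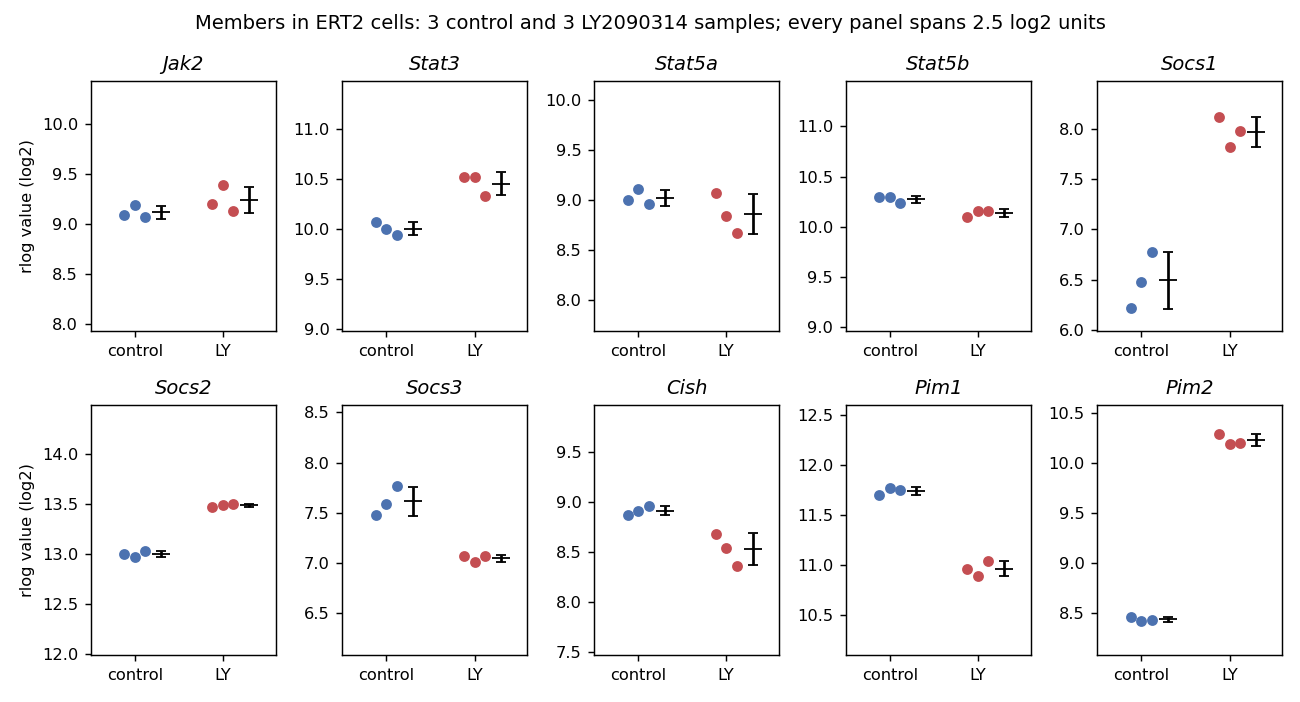
rlog values (log2 scale) of the 10 members in each of 3 control and 3 LY2090314-treated samples, with the mean and SD (bars) beside the points. Every panel spans the same range of log2 units. The points of both groups overlap for *Jak2* and *Stat5a* and are apart for the other 8 members.

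The PIM kinases, serine/threonine kinases that promote survival and growth, moved furthest apart. *Pim2* (ENSMUSG00000031155, chromosome X of GRCm38, 7878262 to 7883432) stood at 8.46, 8.41 and 8.43 in control samples and at 10.29, 10.18 and 10.19 in treated samples. All treated samples were far above all control samples, with little spread in either group. *Pim2* rose by 1.79 on the log2 scale (95% interval 1.66 to 1.92, adjusted p = 2.9e-07, limma), or 3.45-fold, and 1.68% of all genes tested differed by more in either direction. *Pim1* (ENSMUSG00000024014, chromosome 17, 29490753 to 29496112) was at 11.69, 11.77 and 11.75 in control and at 10.96, 10.89 and 11.04 in treated samples, with no overlap. It fell by 0.77 (interval −0.90 to −0.65, adjusted p = 1.5e-05, limma), which is 1.71-fold lower. The difference between both genes in each sample, *Pim1* minus *Pim2*, was 3.30 ± 0.063 (SD, n = 3) in control and 0.74 ± 0.094 (SD, n = 3) in treated cells. The change of −2.56 log2 units, or 5.90-fold, had an exact two-sided permutation p = 0.10, the smallest possible (0.15 after Benjamini-Hochberg adjustment over the 3 gene pairs compared). Because *Pim1* fell and *Pim2* rose without overlap of groups, that permutation p-value was fixed by the single-gene results and adds nothing to them. Per kilobase of the longest coding transcript, *Pim1* was above *Pim2* by 2.90 log2 units in control and by 0.34 in treated cells. No 31-base stretch is shared between the coding transcripts of *Pim1* and *Pim2* in GENCODE vM21.

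The feedback inhibitors also split. SOCS1 binds JAK kinases directly and blocks them, and its transcript (ENSMUSG00000038037, chromosome 16, 10782240 to 10785536) was at 6.22, 6.48 and 6.78 in control and at 8.12, 7.82 and 7.98 in treated samples. Control samples were more spread (SD 0.28) than treated ones (SD 0.15), and the groups stayed apart. *Socs1* rose by 1.48 (interval 1.14 to 1.83, adjusted p = 0.00013, limma), a 2.80-fold increase, and 2.61% of genes differed by more. *Socs2* (ENSMUSG00000020027, chromosome 10, 95385362 to 95417180), which encodes an inhibitor best known for restraining growth hormone signalling, was at 12.99, 12.96 and 13.02 in control and at 13.46, 13.49 and 13.49 in treated samples. These samples hardly varied within a group, and *Socs2* rose by 0.49 (interval 0.38 to 0.60, adjusted p = 9.3e-05, limma), 1.404-fold.

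*Socs3* and *Cish* went the other way. *Socs3* (ENSMUSG00000053113, chromosome 11, 117966079 to 117970047), which encodes an inhibitor of gp130-type receptors and JAKs, was at 7.48, 7.59 and 7.76 in control and at 7.06, 7.001 and 7.07 in treated samples. It fell by 0.57 (interval −0.79 to −0.35, adjusted p = 0.0017, limma), 1.48-fold lower, and the groups did not overlap. *Cish* (ENSMUSG00000032578, chromosome 9, 107296026 to 107302784), a classical direct STAT5 target whose product competes for receptor docking sites, was at 8.87, 8.91 and 8.96 in control and at 8.69, 8.55 and 8.36 in treated samples. Treated samples were more spread (SD 0.16 against 0.045), and each was below every control sample. *Cish* fell by 0.38 (interval −0.59 to −0.18, adjusted p = 0.0086, limma), 1.304-fold lower. The difference *Socs3* minus *Socs1* turned from 1.12 ± 0.14 to −0.93 ± 0.12 (SD, n = 3 each), a change of −2.05 with an exact two-sided permutation p = 0.10 (0.15 after adjustment over the 3 pairs). That permutation p-value was likewise fixed, because *Socs3* fell and *Socs1* rose without overlap of groups. Per kilobase, *Socs3* minus *Socs1* was 1.31 log2 units in control and −0.74 in treated cells. Of the 4 feedback inhibitors, 2 were higher and 2 lower with LY2090314.

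**Figure D2:**
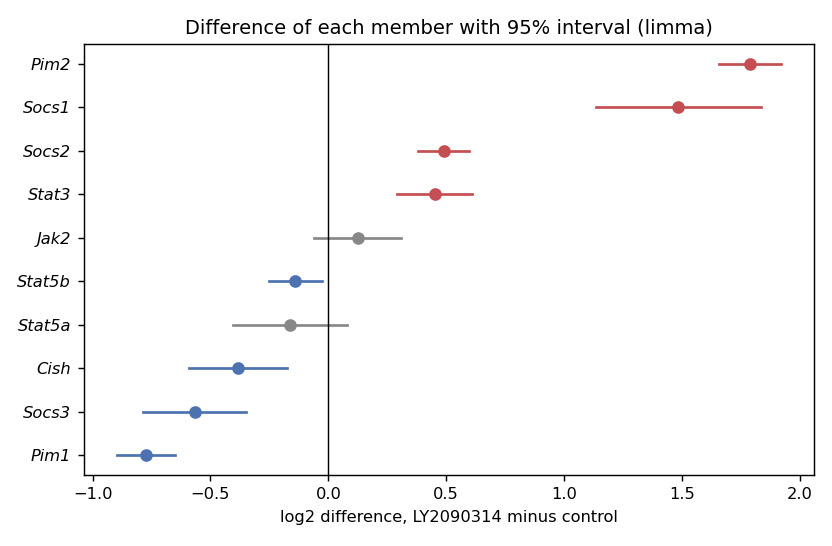
Log2 difference, LY2090314 minus control, of each member (point) with its 95% interval from limma (line). Red marks higher, blue lower and grey not past an adjusted p of 0.05. *Pim2* (1.79) and *Socs1* (1.48) stand to the right of all other members, and *Pim1* (−0.77) lies furthest to the left.

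Of the kinase and the STAT factors, *Stat3* was higher, *Stat5b* was lower, and *Jak2* and *Stat5a* did not pass the test. *Jak2* (ENSMUSG00000024789, chromosome 19, 29251828 to 29313080), which encodes a tyrosine kinase of the JAK family, was at 9.09, 9.19 and 9.07 in control and at 9.20, 9.39 and 9.13 in treated samples, and the groups overlapped. Its difference was 0.12 (interval −0.06 to 0.31, adjusted p = 0.23, limma), so a change as large as the upper bound cannot be told from none with these samples. With 1 sample left out the difference was 0.051 to 0.18, the lowest without treated sample 2. *Stat5b* (ENSMUSG00000020919, chromosome 11, 100780731 to 100850724) was at 10.29, 10.30 and 10.23 in control and at 10.09, 10.15 and 10.16 in treated samples. It fell by 0.14 (interval −0.25 to −0.03, adjusted p = 0.041, limma), and 68.7% of genes differed by more. This call was lost in 6 of 12 alternatives, among them the fits without control sample 1, control sample 2, treated sample 1 or treated sample 2 (adjusted p = 0.11, 0.13, 0.13 and 0.084, limma). *Stat5a* (ENSMUSG00000004043, chromosome 11, 100859351 to 100885169) was at 8.997, 9.11 and 8.96 in control and at 9.07, 8.84 and 8.67 in treated samples. The highest treated sample lay between control values, and the difference of −0.16 (interval −0.40 to 0.08, adjusted p = 0.23, limma) did not pass. Without that sample, treated sample 1, the difference was −0.27 with an adjusted p of 0.047 (limma). Without treated sample 3 it was −0.067 with an adjusted p of 0.55 (limma). *Stat5a* passed in only 1 of 12 alternatives.

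STAT5A and STAT5B are close paralogues with largely shared function in lymphocytes, and of the 31-base stretches in the coding transcripts of *Stat5a*, 20.2% also occur in *Stat5b* (15.2% of those of *Stat5b*). How reads of such stretches were divided cannot be seen in the table. The difference *Stat5a* minus *Stat5b* was −1.253 ± 0.056 in control and −1.28 ± 0.24 in treated cells (SD, n = 3 each), a change of −0.02 with an exact two-sided permutation p = 0.80. The direction of that small change turned without control sample 2 (0.0092) and without treated sample 3 (0.084). *Stat3* (ENSMUSG00000004040, chromosome 11, 100885098 to 100939540), the STAT that relays signals of the IL-6 and IL-10 families, was at 10.07, 10.00 and 9.94 in control and at 10.52, 10.52 and 10.32 in treated samples. *Stat3* rose by 0.45 (interval 0.29 to 0.61, adjusted p = 0.0010, limma), 1.37-fold, with no overlap. *Stat3* and *Stat5a* overlap at their ends on opposite strands. The library kit marks strand, and whether strand was used in counting is not given in the sources used here.

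**Figure D3:**
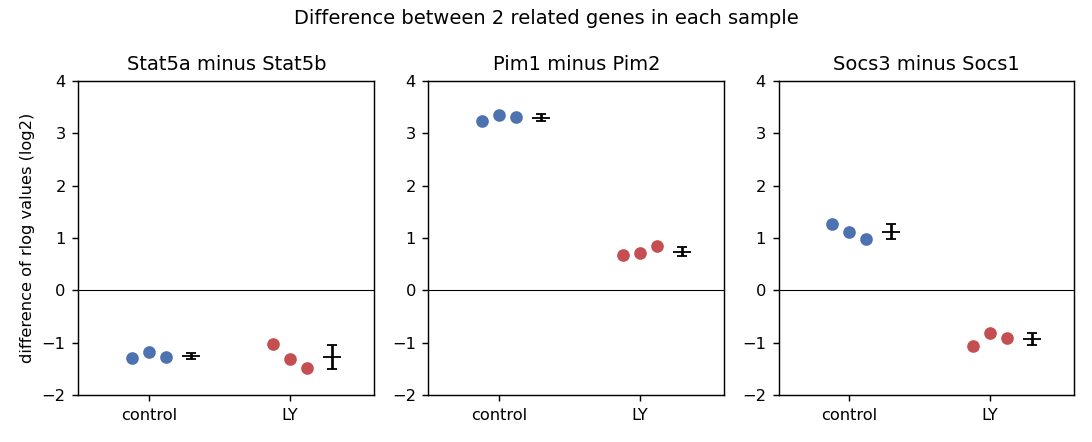
Difference between the rlog values of 2 related genes in each of 3 control and 3 LY2090314-treated samples, with the mean and SD (bars). *Pim1* minus *Pim2* drops from 3.30 to 0.74, *Stat5a* minus *Stat5b* is at −1.253 and −1.28, and *Socs3* minus *Socs1* turns from 1.12 to −0.93.

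Levels of different genes can be compared only per length, and were set side by side as rlog values less the log2 of the kilobases in the longest coding transcript. On this scale *Socs2* was the most abundant member in control cells (11.84), followed by *Pim1* (10.30), *Stat5b* (7.89), *Stat3* (7.41), *Cish* (7.40), *Pim2* (7.40), *Stat5a* (7.06), *Jak2* (6.78), *Socs3* (6.26) and *Socs1* (4.95). *Stat3*, *Cish* and *Pim2* differed by less than their SDs. With LY2090314, *Socs2* (12.33) and *Pim1* (9.53) were again the highest, and *Pim2* (9.19) came next. *Stat3* (7.86) then stood above *Stat5b* (7.75) by no more than its SD of 0.11, *Cish* was at 7.02, and *Jak2* (6.91) and *Stat5a* (6.90) did not differ beyond their spread. *Socs1* (6.44) was above *Socs3* (5.69), the reverse of the order in control cells. The order rests on the choice of transcript, which the table does not give.

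Genes around the members were grouped by role. Of 23 cytokine receptors and ligands, 18 were tested, and 9 were higher and 6 lower. *Il2ra*, the IL-2 receptor α-chain and itself a well-known STAT5 target, was at 9.14, 8.99 and 9.04 in control and at 11.83, 11.88 and 11.74 in treated samples, a rise of 2.75 (adjusted p = 4.0e-08, limma). *Il10ra*, the ligand-binding chain for IL-10, rose by 0.97, and *Il7r*, the receptor chain through which these cells were first grown, rose by 0.35. *Il4ra*, the IL-4 receptor α-chain, fell by 0.91, and *Ifngr2*, a chain of the interferon-γ receptor, fell by 0.84. The genes *Epor* and *Tslp* were listed at 0 in all samples. The median difference of the tested receptors was 0.12.

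Of the 7 other JAK and STAT genes, 6 were tested, and 1 was higher and 1 lower. *Stat2*, which acts in interferon signalling, rose by 0.72 (adjusted p = 0.00050, limma). *Jak3*, the kinase of the common γ-chain, fell by 0.18 (adjusted p = 0.044, limma), a call that was lost without control sample 2 or 3 or treated sample 1 or 2 (adjusted p = 0.10 to 0.13, limma), without a limit on the mean level (0.078) and in 2 further alternatives. *Jak1*, its partner at the IL-7 receptor, differed by 0.05 (adjusted p = 0.49, limma). *Tyk2* was listed at 0 in all 6 samples, as were 6772 of 21294 protein-coding genes, and such an entry need not mean that the gene was silent.

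Among 16 further inhibitors, 15 were tested, and 4 were higher and 1 lower. The phosphatase gene *Ptprc*, which encodes CD45, rose by 0.86 (adjusted p = 7.8e-06, limma), and the ubiquitin ligase gene *Cblb* by 0.58 (adjusted p = 0.010, limma), with 1 treated sample at 9.61 and the others at 10.16 and 10.13. *Sh2b3*, the adaptor LNK that restrains JAK2, fell by 0.22 (adjusted p = 0.047, limma), a call lost in 8 of 12 alternatives, among them the fits without any 1 of the control samples, treated sample 1 or treated sample 3 (adjusted p up to 0.12). *Sh2b3* overlaps *Atxn2* on the other strand, which went from 9.34 to 9.12. No member of the *Socs4* to *Socs7* group passed the test, which does not show that they were unchanged. *Socs4* was near the threshold (0.25, adjusted p = 0.055, limma), and *Socs7* had a wide interval (−1.34 to 1.38). Both are named here after their values were seen.

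Of 12 further genes that STAT5 is known to control, 10 were tested, and 5 were higher and 4 lower. *Bcl2*, the founding survival gene of its family, was at 9.67, 9.59 and 9.44 in control and at 11.80, 11.86 and 11.70 in treated samples, a rise of 2.22 (adjusted p = 3.6e-07, limma). *Ccnd2*, a D-type cyclin gene, rose by 0.92 (adjusted p = 3.0e-05, limma), whereas its relative *Ccnd3* fell by 1.09 (adjusted p = 3.2e-05, limma). *Ccnd3* overlaps *Bysl* on the other strand, which went from 9.91 to 9.50. *Bcl2l1*, which encodes BCL-XL, rose by 0.30 (adjusted p = 0.030, limma), and *Bcl6*, a gene that STAT5 represses, rose by 0.46 (adjusted p = 0.019, limma). The *Bcl2l1* call was lost without control sample 1 or 2, without treated sample 1 or 3, with median centring and without a limit on the mean level (adjusted p up to 0.092, limma). The *Bcl6* call was lost without control sample 3, without treated sample 2 and without a limit on the mean level (adjusted p up to 0.061, limma). *Pim3*, the remaining PIM kinase gene, fell by 0.30 (adjusted p = 0.033, limma) and is named here after its value was seen. *Myc* had the largest fall of the genes in these lists (2.64, adjusted p = 1.9e-08, limma). The median difference of the tested targets was 0.13. Because the list includes *Bcl6*, which STAT5 represses, its counts and median have no single direction with respect to STAT5.

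The last list held 15 genes for BCR and ABL1 and for proteins that bind the fusion kinase. All were tested, and 5 were higher and 5 lower. *Abl1* was at 12.34, 12.26 and 12.25 in control and at 13.80, 13.97 and 13.86 in treated samples, a rise of 1.596 (adjusted p = 6.7e-07, limma), and *Bcr* rose by 1.05 from 12.29 to 13.34 (adjusted p = 1.9e-06, limma). The cells also express *BCR-ABL1* from a retrovirus, and the table does not show how many reads of the fusion transcript were assigned to mouse *Bcr* and *Abl1*. *Gab2*, an adaptor that couples BCR-ABL1 to downstream pathways, fell by 0.35 (adjusted p = 0.0055, limma). *Crkl*, which encodes a prominent BCR-ABL1 substrate, differed by 0.00 (interval −0.10 to 0.10) and was chosen after its value was seen.

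**Figure D4:**
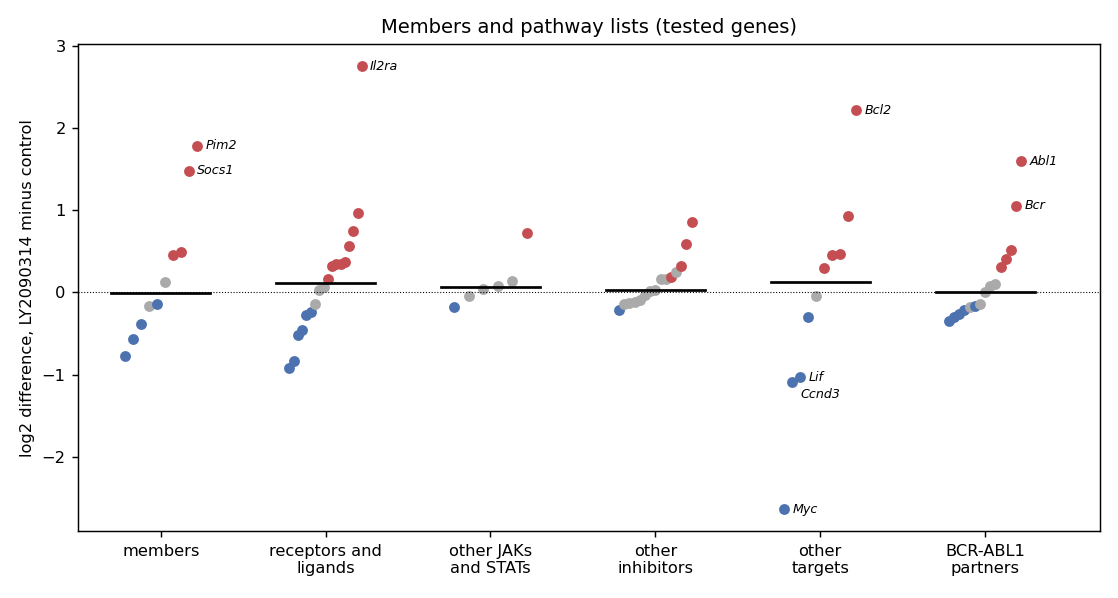
Log2 difference, LY2090314 minus control, of each tested gene in the members and the 5 pathway lists, with the list's median as a bar. Red marks higher, blue lower and grey not past an adjusted p of 0.05, and genes beyond 1 in size are named. Each list holds genes in both directions, and *Il2ra*, *Bcl2* and *Myc* lie furthest from 0.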

How the data were processed

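Polyadenylated RNA was sequenced with a stranded paired-end kit. The authors used Salmon for transcript quantification and STAR for alignment, with GRCm38 and GENCODE vM24, and the authors' downstream tool was DESeq2 (1.30.1 in the submitters' processing notes). The deposited table holds log2 (rlog) values from the authors. Which samples entered the transformation is not given in the sources used here. Of 12 columns, 6 were matched by name to a group. The other 6, whose names combine Cre and LY in different spellings, were not used. Symbols were matched to 41157 of 41444 identifiers, and positions are those of GENCODE vM21 on GRCm38.

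Genes with a mean rlog value of at least 3 over the 6 samples were tested for a group difference by limma (version 3.58.1, R version 4.3.3, mean-variance trend, Benjamini-Hochberg adjustment over all 11536 genes, threshold 0.05), after a test on simulated data. Intervals are 95% intervals of the moderated fit. The limma p-values set a group difference against the spread between these samples, moderated over all genes tested. Labels do not say whether samples of a group were separate cultures, so that spread may be technical. The study's legend names mice as replicates and gives a shorter exposure to LY2090314 than the labels.

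The members, the lists and the gene pairs were chosen with earlier results of these data known. Other pairs of members were not compared, and the adjustment over pairs does not count them. The genes named are the members, up to 2 genes a pathway list in each direction with the greatest log2 difference, if past the threshold and without overlap, and *Il7r*, *Jak1*, *Bcl2l1*, *Bcl6*, *Ccnd2*, *Abl1* and *Bcr*. Some genes that this rule gives are not reported here. Alternatives were another variance model, other limits on the mean, 2 scalings, leaving out each sample, the treated samples with a shared library number as 1 sample, and stricter call rules. Samples of a group are numbered in column order, as names only.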

Additional observations from a re-analysis of the deposited data

How the results depend on the processing

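The number of members past the threshold was 7 or 8 in every alternative except the added requirement of a log2 difference of at least 1, which left 2. It was 7 with the treated samples of a shared library number as 1 sample. The 8 members other than *Stat5a* and *Stat5b* kept direction and side of the threshold in all 12 alternatives they were computed under. *Stat5b* lost its call without the mean-variance trend (difference −0.14, adjusted p = 0.070) and with the shared library number as 1 sample (−0.13, adjusted p = 0.096). With each sample left out its difference was −0.16 to −0.12, and that of *Stat5a* −0.27 to −0.067. *Stat5a* minus *Stat5b* changed by −0.15 to 0.08 with 1 sample left out. It turned positive without control sample 2 (0.0092) and without treated sample 3 (0.084). The median difference of the members was −0.050 to 0.056.

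Over all genes, 4741 to 6225 passed with 1 sample left out, and 693 with a log2 difference of at least 1. That requirement left 1 of the receptors, 0 of the other JAK and STAT genes, 0 of the other inhibitors, 4 of the other targets and 2 of the BCR-ABL1 partners. A threshold of 0.01 left 1 of the other JAK and STAT genes, 1 of the other inhibitors and 5 of the BCR-ABL1 partners. Of the other JAK and STAT genes, 1 passed without the mean-variance trend and 1 with the shared library number as 1 sample. Without a limit on the mean, 3 of the other inhibitors and 6 of the BCR-ABL1 partners passed. Leaving out 1 sample gave 10 to 14 receptors, 1 or 2 other JAK and STAT genes, 2 to 6 other inhibitors, 7 or 8 other targets and 6 to 9 BCR-ABL1 partners. The count moved by over 1.5 times for other JAK and STAT genes without control sample 2 or 3 or treated sample 1 or 2 (1 each, of 2), for other inhibitors without control sample 1 or 2 or treated sample 1 or 2 (3, 2, 3 and 3, of 5), and for BCR-ABL1 partners without control sample 1 or 2 (6 each, of 10). The median difference of the receptors was 0.046 without a limit on the mean and 0.090 with median centring, that of the other inhibitors 0.025 to 0.20 with 1 sample left out, and that of the BCR-ABL1 partners 0.039 with a mean of at least 5. The cause of these shifts was not tested.

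Of the 22 other genes that the naming rule gave, 6 changed side of the threshold in at least 1 alternative and 0 changed direction. No paired analysis was possible because the numbers in the 6 columns used cannot be tied to those in the titles. Depth is unknown, so what it limits was not assessed.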
